A study of Mus musculus with 17 samples.

Results

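The type I interferon response genes described here are 46 genes that cells switch on after interferon alpha or beta binds its receptor. They were chosen by symbol, from a list of members, as rows of a table of normalized read counts, and all 46 were found among its 13501 genes. The study replaced microglia, the resident macrophages of the brain, by bone-marrow-derived cells with or without the receptor gene Trem2 in mice that model the amyloid deposits of Alzheimer's disease. RNA was sequenced in bulk from DAPI-negative CD45+CD11b+ cells sorted from brain, which gave 17 libraries in 5 groups. The first group holds 4 libraries of circulation-derived myeloid cells from Trem2-knockout donors (S32 to S35), and the second 4 libraries of such cells from Trem2-wildtype donors (S28 to S31). Both came from Trem2-KO; 5XFAD hosts after bone marrow transplantation and PLX5622, an inhibitor of the CSF1 receptor that depletes microglia. The third group is 3 libraries of microglia from untreated Trem2-KO; 5XFAD mice (S25 to S27), and the fourth 3 libraries of microglia from untreated Trem2-WT; 5XFAD mice (S22 to S24). The last group is 3 libraries of microglia from untreated mice without 5xFAD and with wild-type Trem2 (S20, S21 and S36). The 5xFAD transgenes are driven by a neuronal Thy1 promoter and not by the microglia. The labels used here give no ages, and donor and host differ in Trem2 in the wild-type transplant alone. Transplanted cells also differ from microglia by origin, transplantation and PLX5622 together, which cannot be told apart.

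Type I interferons bind the receptor formed by Ifnar1 and Ifnar2, and the kinases Jak1 and Tyk2 then phosphorylate transcription factors that include Stat2. Stat2 and Irf9 act in the complex ISGF3, which binds the interferon-stimulated response element in the promoters of target genes. The targets include sensors of viral nucleic acid, enzymes that block translation or degrade RNA, membrane proteins that hinder virus entry or release, and feedback inhibitors. In the brain, a subset of microglia with a raised interferon programme has been described in amyloid models and in ageing.

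Library sizes, read back from the deposited values, ran from 16044078 to 30606394 reads, and 1 read was worth between 0.65 and 1.31 normalized reads. Trem2 followed the labels: it had 3962 to 5211 normalized reads in knockout transplants, 37066 to 53908 in wild-type transplants, 4367 to 5965 in knockout 5xFAD microglia, 49347 to 53077 in wild-type 5xFAD microglia and 31205 to 37459 in normal microglia. The resident microglial transcription factor Sall1 had 87 to 309 normalized reads in the transplants and 3420 to 9289 in the microglia groups. Ms4a7, a marker of brain macrophages of blood origin, had 15783 to 26888 and 335 to 1309. The labels do not say whether the libraries of a group are separate animals, so p-values measure the spread between these libraries, which may be technical. In bulk RNA, fewer cells with a programme and less of it per cell cannot be told apart.

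Knockout 5xFAD microglia were not uniform. Across the 46 members, the median deviation from each gene's mean over all libraries was 0.52 in S25 and 0.56 in S27 but -0.47 in S26 on the log2 scale. Normal microglia gave -0.83 in S20, -0.32 in S21 and -0.57 in S36, so S26 lay with the normal libraries. Wild-type 5xFAD microglia gave -0.0035 to 0.25, and all 8 transplant libraries gave 0.037 to 0.38. In S25 and S27, 41 of 46 members were above their mean, against 7 in S26 and 3 to 5 in the normal libraries. The neutrophil list, 13 of whose 14 genes were measured, split the same 3 libraries. Its summed level was 126773 in S25, 55409 in S26 and 136837 in S27. The other groups reached 16351 to 37024 in knockout transplants, 23977 to 31738 in wild-type transplants, 15327 to 18073 in wild-type 5xFAD microglia and 19567 to 32337 in normal microglia. Monocyte genes, 15 of 15 measured, summed to 21934, 11718 and 22875 in S25, S26 and S27, against 4346 to 4757 in wild-type 5xFAD microglia. Defining neutrophil markers were not at 0 there: S100a8 had 29831, 9755 and 33425 normalized reads in S25, S26 and S27. The part of these cells in the member values was not tested.

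**Figure D1:**
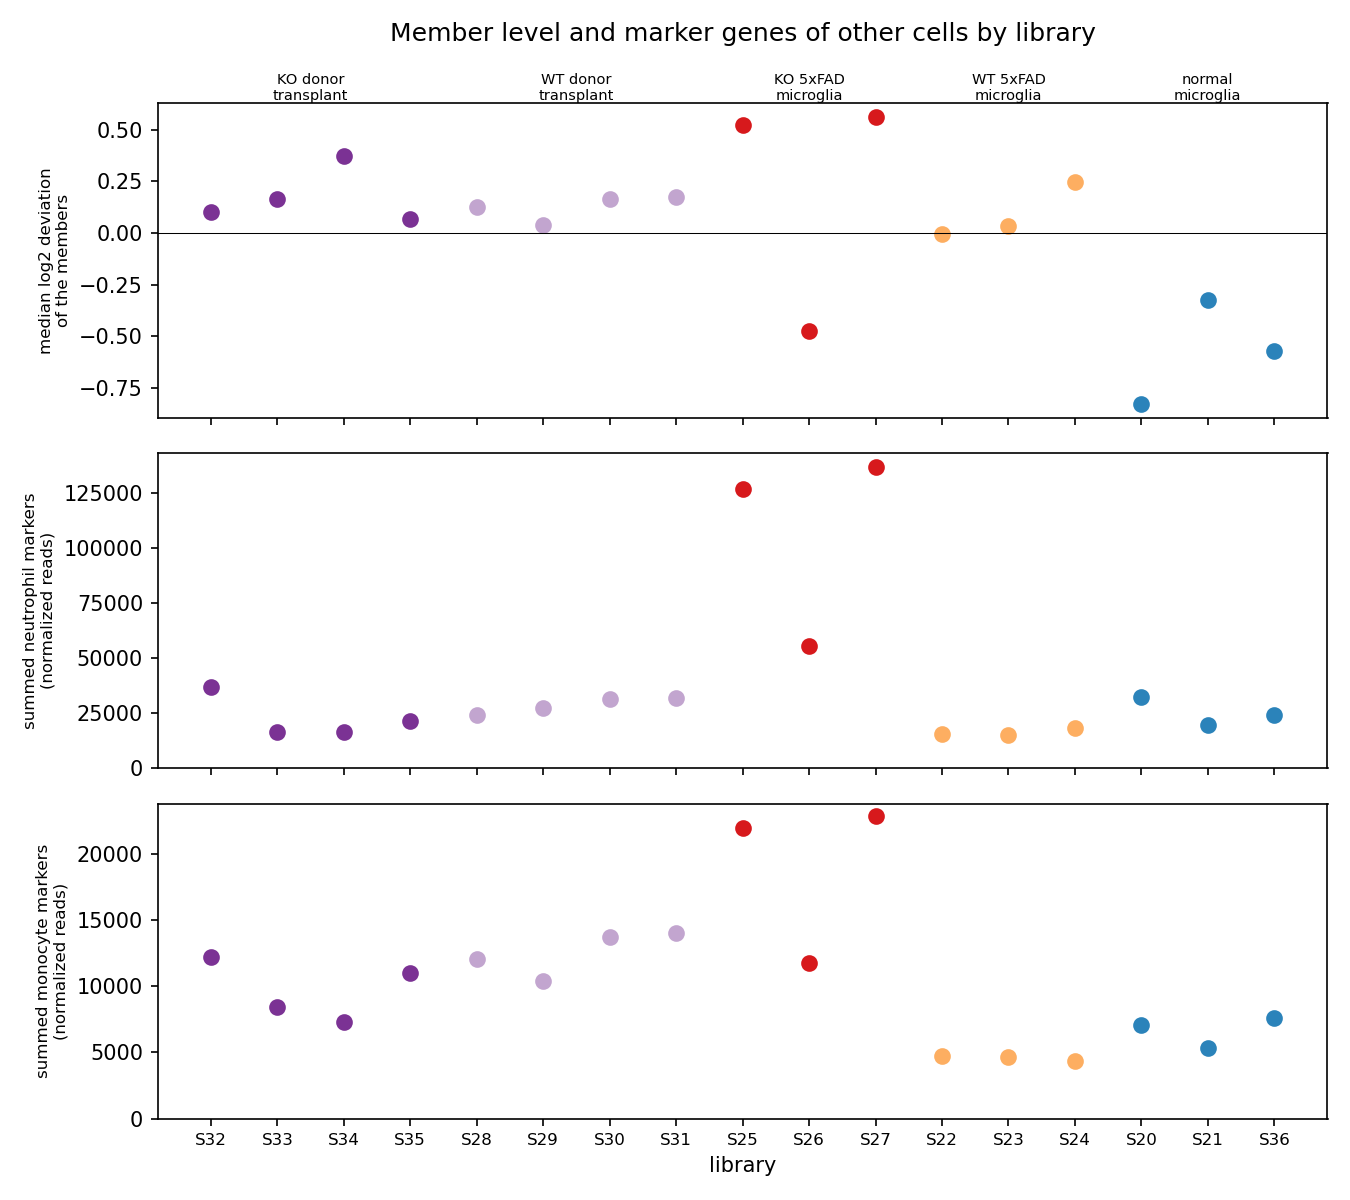
Median log2 deviation of the 46 members from their mean over all libraries (top), and summed normalized reads of the neutrophil (middle) and monocyte (bottom) marker lists, 1 point per library with colours for the 5 groups. Knockout 5xFAD library S26 lies at -0.47 beside the normal libraries in the top panel, and S25 and S27 stand highest in all 3 panels.

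S25 and S27 lay close together over all genes (chi-square per degree of freedom 9.75), as did S22 and S23 (6.14) and S30 and S31 (4.93). Other pairs within groups began at 13.1. These pairs still differed by more than sampling noise and were kept as separate libraries. Tests used limma on log2(normalized reads + 1), with 1 fit over all 5 groups and Benjamini-Hochberg adjustment over 12074 genes. All 46 members passed the filter on low values, and a gene was called at an adjusted p under 0.05. Fold changes are log2, first-named group over second, with the standard error (SE) of the fit. They understate the change of genes with few reads.

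Per kilobase of exon, the members spanned a wide range of levels. In wild-type 5xFAD microglia, Ly6e, a membrane-anchored protein of the Ly6 family, had 10043 ± 61.1 normalized reads per kilobase (SD, n = 3). Lgals3bp, a secreted glycoprotein that binds galectin 3, followed with 7760 ± 747. Ifitm3, which hinders fusion of viruses with endosomes, had 3554 ± 148 and Ifi27l2a 3507 ± 513 on that scale. Ifitm3 and Ifi27l2a did not differ beyond their spread, while Lgals3bp stood clear of both neighbours in the order. Bst2, the protein tetherin that holds budding virions at the cell surface, came next with 2908 ± 136. Bst2 moved to the top of the order in transplanted cells, with 10492 ± 917 per kilobase in knockout and 13330 ± 1595 in wild-type transplants (n = 4 each). Ifi44 was lowest in every group, from 1.81 per kilobase in normal microglia to 12 in knockout 5xFAD microglia. Its reads per library, 4.02 to 126, make it the least precisely measured member. Among the transcription factors, group means ran from 412 to 547 per kilobase for Irf9, the DNA-binding part of ISGF3, from 156 to 281 for Irf7, which amplifies interferon production, and from 118 to 175 for Stat2.

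**Figure D2:**
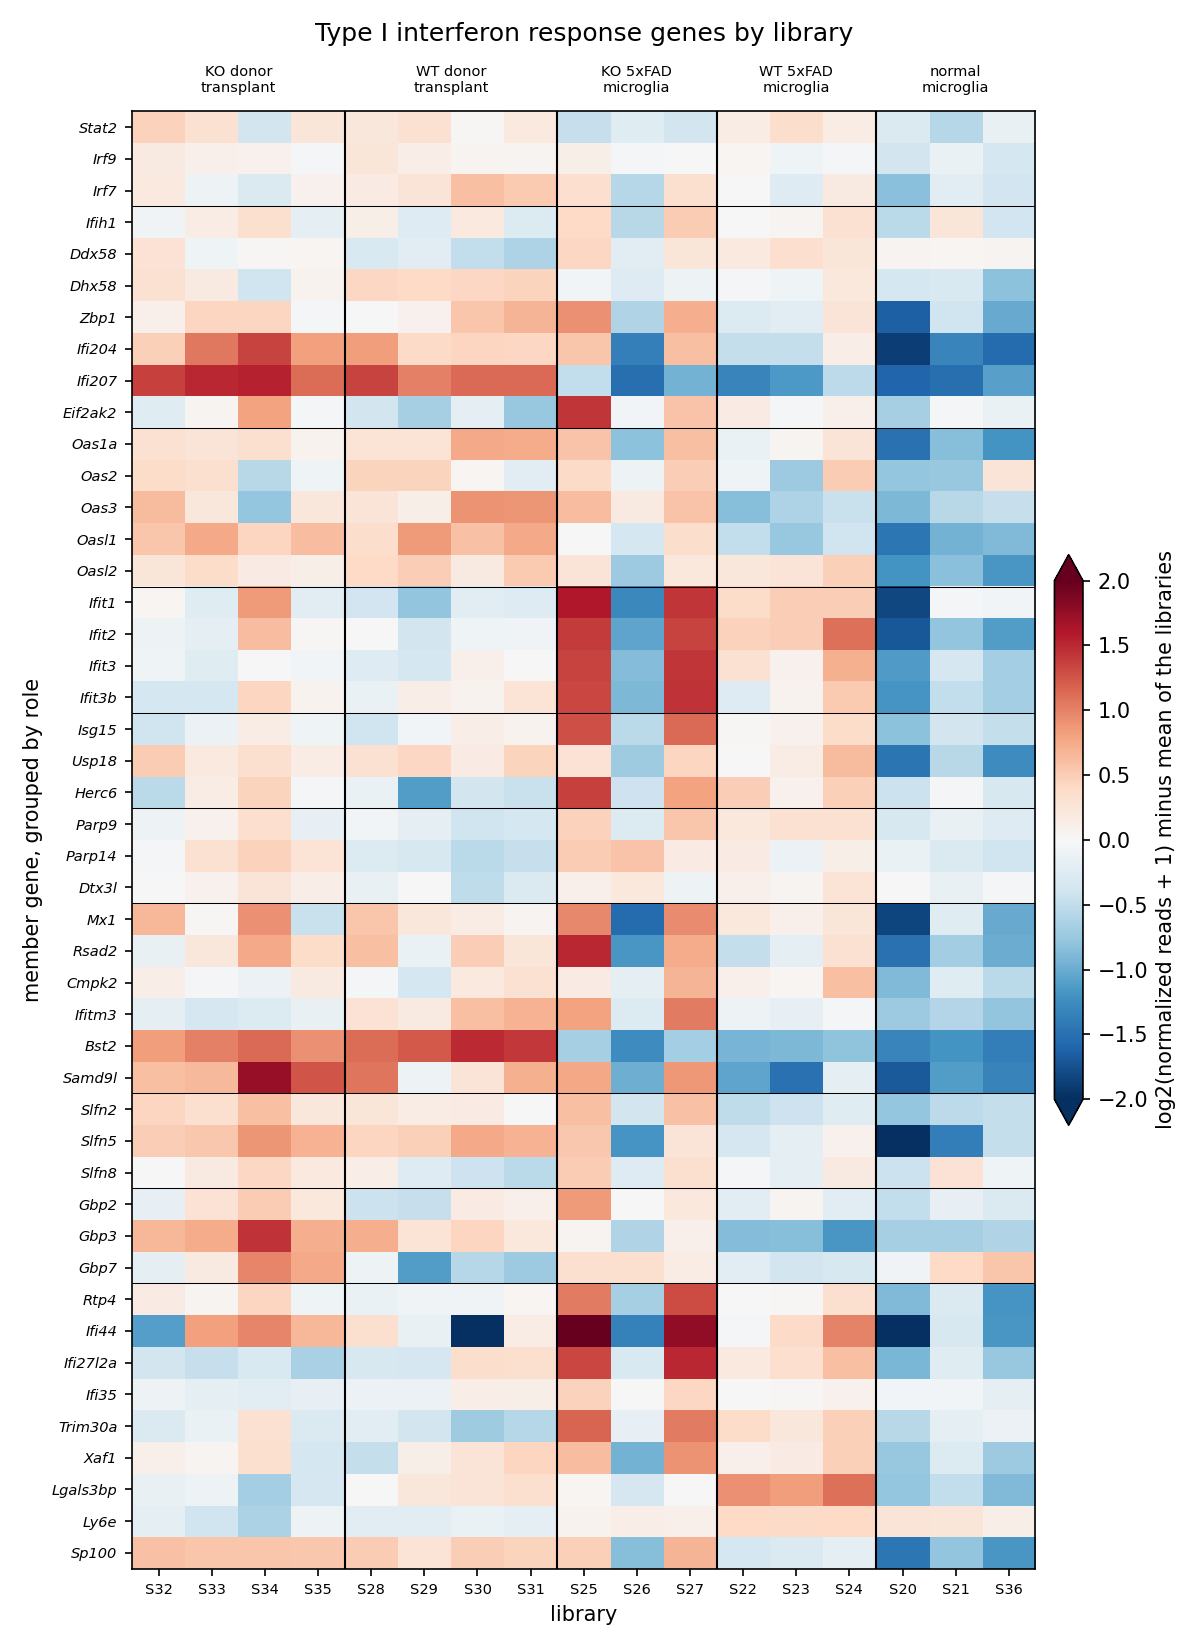
Each cell is the log2(normalized reads + 1) of a member (rows, grouped by role) in a library (columns, grouped by condition) minus the mean of that gene over the 17 libraries; colours are limited to -2 and 2. Normal libraries and knockout 5xFAD library S26 are blue over most rows, S25 and S27 are red over most rows including the Ifit genes, and the transplants are red for Bst2 and Ifi207.

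Promoter sequence is shown for 8 members that were called in the most comparisons (3 to 5 of 8) and that have a window in the table used. The windows are from RefSeq on build GRCm38.p6 and reach from 250 bases before to 50 bases after the annotated start, 5′ to 3′ on the gene's strand. Capitals mark matches to the core of the interferon-stimulated response element, 2 copies of GAAA with any 2 bases between them, searched on both strands.
Lgals3bp (chr11:118401910-118402209, minus strand): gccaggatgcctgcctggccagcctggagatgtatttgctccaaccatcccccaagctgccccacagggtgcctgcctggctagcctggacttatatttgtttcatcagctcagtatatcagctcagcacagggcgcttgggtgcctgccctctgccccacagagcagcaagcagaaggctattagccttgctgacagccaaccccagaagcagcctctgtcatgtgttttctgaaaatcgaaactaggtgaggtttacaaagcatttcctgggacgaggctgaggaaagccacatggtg
Gbp3 (chr3:142559794-142560093, plus strand): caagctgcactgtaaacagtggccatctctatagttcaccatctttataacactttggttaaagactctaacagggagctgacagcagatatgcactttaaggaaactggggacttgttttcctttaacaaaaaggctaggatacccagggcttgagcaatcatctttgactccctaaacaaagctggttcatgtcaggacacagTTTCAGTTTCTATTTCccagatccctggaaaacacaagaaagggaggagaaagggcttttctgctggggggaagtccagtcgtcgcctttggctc
Oasl1 (chr5:114922990-114923289, plus strand): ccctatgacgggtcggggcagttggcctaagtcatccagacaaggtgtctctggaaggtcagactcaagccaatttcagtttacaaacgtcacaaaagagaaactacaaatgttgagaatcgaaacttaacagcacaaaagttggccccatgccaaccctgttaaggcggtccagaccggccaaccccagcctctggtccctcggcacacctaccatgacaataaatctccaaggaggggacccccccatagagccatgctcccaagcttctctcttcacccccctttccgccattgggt
Ifitm3 (chr7:141010695-141010994, minus strand): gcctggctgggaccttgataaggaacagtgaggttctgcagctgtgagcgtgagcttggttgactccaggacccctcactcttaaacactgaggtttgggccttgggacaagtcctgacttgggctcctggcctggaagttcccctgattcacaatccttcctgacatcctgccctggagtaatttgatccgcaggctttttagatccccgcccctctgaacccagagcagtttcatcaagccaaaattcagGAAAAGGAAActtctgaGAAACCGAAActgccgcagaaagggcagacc
Trim30a (chr7:104465144-104465443, minus strand): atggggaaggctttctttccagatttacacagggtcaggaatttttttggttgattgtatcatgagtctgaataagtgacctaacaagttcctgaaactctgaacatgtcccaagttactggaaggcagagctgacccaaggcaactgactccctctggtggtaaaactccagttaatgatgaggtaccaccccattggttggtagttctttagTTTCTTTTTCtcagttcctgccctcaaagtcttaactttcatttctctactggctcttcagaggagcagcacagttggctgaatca
Bst2 (chr8:71537423-71537722, minus strand): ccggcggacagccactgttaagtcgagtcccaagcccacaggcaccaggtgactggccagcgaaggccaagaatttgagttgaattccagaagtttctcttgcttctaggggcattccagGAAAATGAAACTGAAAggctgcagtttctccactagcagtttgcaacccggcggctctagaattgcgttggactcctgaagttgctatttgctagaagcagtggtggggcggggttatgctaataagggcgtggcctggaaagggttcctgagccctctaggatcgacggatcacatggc
Ifi207 (chr1:173741760-173742059, minus strand): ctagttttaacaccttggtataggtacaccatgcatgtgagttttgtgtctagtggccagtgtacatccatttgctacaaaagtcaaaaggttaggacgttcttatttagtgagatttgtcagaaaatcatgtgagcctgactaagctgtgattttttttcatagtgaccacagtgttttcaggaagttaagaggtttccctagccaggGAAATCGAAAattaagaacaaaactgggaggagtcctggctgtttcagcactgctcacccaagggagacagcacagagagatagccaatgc
Ddx58 (chr4:40239776-40240075, minus strand): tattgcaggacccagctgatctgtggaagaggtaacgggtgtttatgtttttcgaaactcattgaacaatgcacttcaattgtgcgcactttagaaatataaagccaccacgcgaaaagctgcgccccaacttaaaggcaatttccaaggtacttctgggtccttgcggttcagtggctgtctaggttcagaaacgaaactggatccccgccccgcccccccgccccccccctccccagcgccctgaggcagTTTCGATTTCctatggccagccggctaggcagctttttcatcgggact
Bst2, Gbp3 and Ifitm3 each held 2 matches, and those of Bst2 and Gbp3 overlap each other. The windows of Lgals3bp and Oasl1 hold no match, which says only that these letters are not in this window. RefSeq windows were found for 35 of the 46 members, and 20 of these 35 (57.1%) held the element in at least 1 window. Over all 32851 windows of the table, 1131 (3.44%) held it. Isg15, the ubiquitin-like modifier, had the most, with 3 overlapping matches. The gamma-activated sequence TTCNNNGAA was in the windows of 7 of the 35 members (20%), against 8.3% of all windows. In Bst2 and Ifitm3 it overlaps an interferon-stimulated response element. A match is a description of the sequence and not a binding site.

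**Figure D3:**
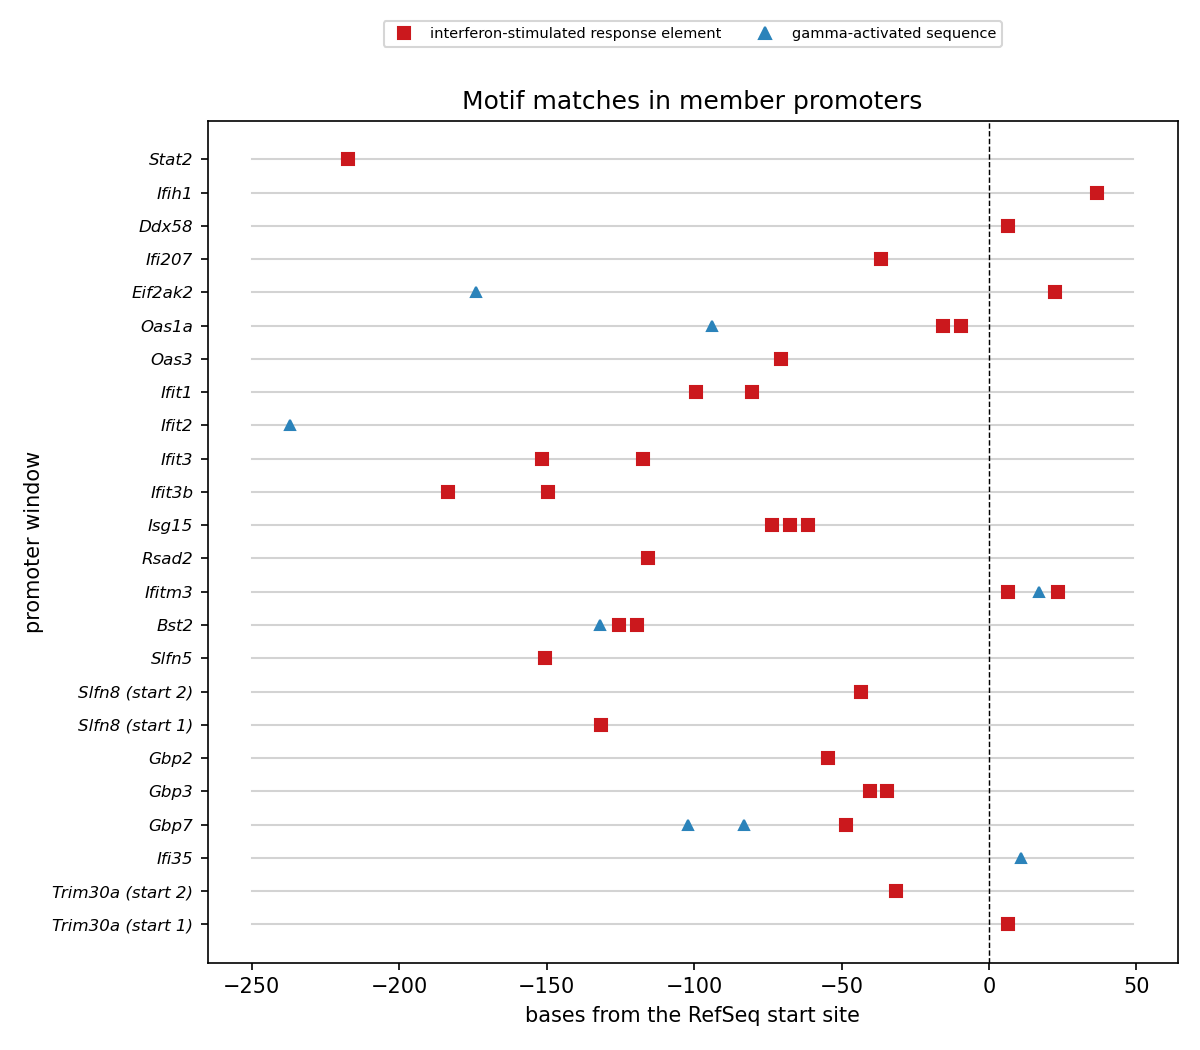
Position of each motif match in the promoter windows of members with at least 1 match, in bases from the RefSeq start site (dashed line); squares are the interferon-stimulated response element and triangles the gamma-activated sequence. The elements of most members lie within the 160 bases before the start, while those of Ifih1, Ddx58, Eif2ak2, Ifitm3 and 1 start of Trim30a lie after it.

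The first comparison asks what the 5xFAD background does to the programme in microglia that carry Trem2. In wild-type 5xFAD against normal microglia, 5 members rose and none fell, against 2.83% of all genes tested that rose and 0.952% that fell (3.78% in either direction). The members' median fold change was 0.58, against 0.0037 over all genes, and 43 of 46 were above 0. Levels did not overlap in 34 members that were higher and 2 that were lower in the 5xFAD libraries, against 16.7% and 16.9% of all genes. Both of the lower ones were guanylate-binding proteins, Gbp3 and Gbp7, and neither was called. Lgals3bp had 21421, 20383 and 24476 normalized reads in wild-type 5xFAD microglia, against 6681, 8091 and 6192 in normal microglia. Its fold change was 1.67 with an SE of 0.16 (adjusted p = 3.46e-06). Oasl2, a member of the 2-5A synthetase family, had 1100, 1119 and 1304 in wild-type 5xFAD microglia, against 411, 525 and 420 in normal microglia. The increase was 1.38 with an SE of 0.20 (adjusted p = 0.00033), and the wild-type 5xFAD libraries lay close together. Usp18, the protease that removes Isg15 and shuts down receptor signalling, had 830, 920 and 1293 in wild-type 5xFAD microglia and 301, 561 and 344 in normal microglia, a fold change of 1.36 (SE 0.26, adjusted p = 0.0042). Oas1a makes the oligoadenylates that activate RNase L. It had 890, 1021 and 1174 normalized reads in wild-type 5xFAD microglia, against 349, 542 and 425 in normal microglia, and rose by 1.24 (SE 0.28, adjusted p = 0.0154). Ifit2, which binds RNA and restrains translation, had 582, 594 and 903 in wild-type 5xFAD microglia, against 130, 242 and 194 in normal microglia, and rose by 1.89 (SE 0.45, adjusted p = 0.022). No group overlapped in these 5 genes. The other 41 members ran from -0.60 (Gbp7) to 1.72 (Ifi44). The remaining Ifit genes had fold changes of 0.90 to 1.25, and none was called.

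Lgals3bp, Oasl2 and Usp18 were called without any 1 of the 6 libraries. The Oas1a call was lost without S23, S24, S20 or S36 (adjusted p up to 0.0932) and the Ifit2 call without S22, S23, S24, S20 or S36 (up to 0.122), which left 3 called members without S23, S24 or S20. A model of these 2 groups alone called 23 members higher and 1 lower, and DESeq2 called 10 higher. At an unadjusted p under 0.05 limma gave 23 higher and 1 lower, and neither edgeR nor DESeq2 called any lower. Over all genes the 2-group model called 1757 and DESeq2 769, against 457 in the main fit. Early response genes of tissue dissociation moved with the same comparison: 6 of 10 were called higher, and their sum was 130632 to 152392 in wild-type 5xFAD microglia and 54914 to 85509 in normal microglia. Their part in the result was not tested.

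Knockout 5xFAD against normal microglia sets 5xFAD microglia without Trem2 against the same normal libraries, which carry wild-type Trem2. The 5xFAD background and the Trem2 genotype differ together in it and cannot be told apart. Here 15 members rose and none fell, against 2.7% and 1.21% of all genes tested (3.91% in either direction), with a median fold change of 0.89 against 0.032 over all genes. Levels were above every normal library in 15 members, against 11.7% of all genes, and below in none, against 8.46%. The called members come from most roles. They are the sensors Ifi204 and Zbp1, 3 of 5 genes of the 2-5A synthetase family, 1 of 4 Ifit genes, Usp18, Parp14, Ifitm3, Slfn2 and 5 of the 9 genes in no other role. Ifitm3 had 4506, 2137 and 5328 normalized reads in S25, S26 and S27, against 1559, 1728 and 1493 in normal microglia, and rose by 1.22 (SE 0.23, adjusted p = 0.0097). Oasl2 had 1130, 570 and 1095 in the knockout 5xFAD libraries, against 411, 525 and 420 in normal microglia, and rose by 0.98 (SE 0.20, adjusted p = 0.0174). Oasl1, which in mice lacks synthetase activity and restrains translation of Irf7, had 162, 127 and 209, against 59.3, 83.7 and 88.4 in normal microglia, with a fold change of 1.09 (SE 0.23, adjusted p = 0.0189). In each of these S26 was the lowest knockout library yet above all normal ones. Sp100, a protein of PML nuclear bodies, had 1502, 598 and 1738 in the knockout 5xFAD libraries and 399, 625 and 481 in normal microglia, with a fold change of 1.23 (SE 0.27, adjusted p = 0.0209), and S26 lay within the normal range. Oas1a had 1456, 552 and 1484 in knockout 5xFAD microglia, against 349, 542 and 425 in normal microglia, with a fold change of 1.30 (SE 0.28, adjusted p = 0.0222). Slfn2, a Schlafen protein needed for T cell quiescence, had 4704, 2396 and 4649, against 1821, 2145 and 2234 in normal microglia, a fold change of 0.86 (SE 0.19, adjusted p = 0.0245). Both S26 values were just above the highest normal one. Ifi27l2a had 3135, 1001 and 3530 in knockout 5xFAD microglia, against 653, 1046 and 734 in normal microglia (fold change 1.49, SE 0.34, adjusted p = 0.0266). Usp18 had 1009, 507 and 1122, against 301, 561 and 344 in normal microglia (fold change 1.10, SE 0.26, adjusted p = 0.0321). For both genes S26 fell among the normal libraries. The other 7 called members were Ifit2 (1.77), Ifi204 (1.5), Zbp1 (1.36), Rtp4 (1.34), Trim30a (0.97), Parp14 (0.68) and Lgals3bp (0.61). Ifi44 had the largest fold change, 2.19, and was not called: its reads were 126, 8.76 and 84.6 in S25, S26 and S27, against 4.02, 19.0 and 10.2 in normal microglia.

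**Figure D4:**
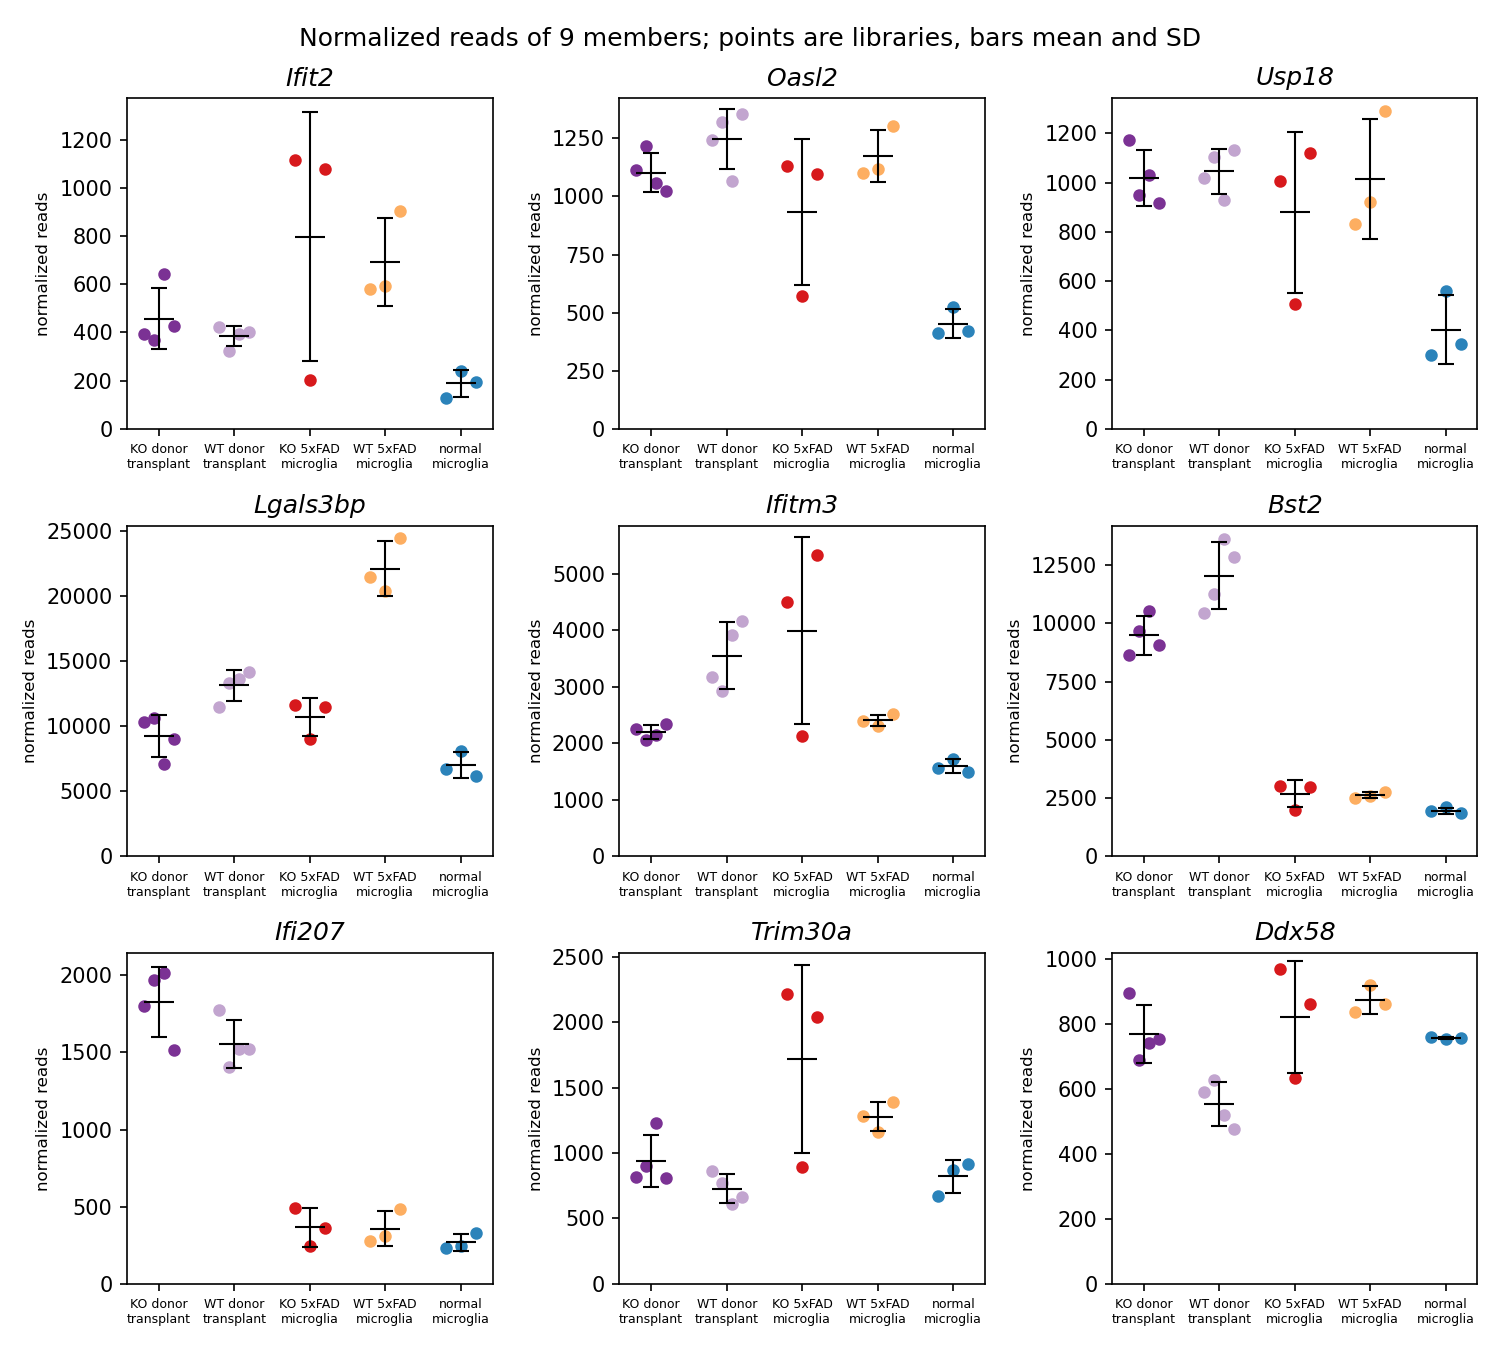
Normalized reads of 9 members by group, 1 point per library, with the mean and SD of each group. Bst2 and Ifi207 separate the transplants from all microglia, Lgals3bp is highest in wild-type 5xFAD microglia, and knockout 5xFAD microglia split into 2 high libraries and 1 low one for Ifit2, Ifitm3 and Trim30a.

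The count of 15 rested on S25 and S27. Without S25 or without S27 no member was called, and without S26 the count was 38. It was 1 without S20, 8 without S21 and 3 without S36. Calls over all genes moved too: 46 without S27 and 4601 without S26, against 472 in the main fit. A model of these 2 groups alone, whose spread includes the gap between S26 and the other 2 libraries, called no member. At an unadjusted p under 0.05 there were 35 members, all higher, and on recovered reads edgeR called 20 and DESeq2 32, with 0 lower by both. Over all genes the 2-group model called 1, edgeR 443 and DESeq2 1266. Beside these counts, 10 of the 13 neutrophil genes tested and 7 of the 14 monocyte genes were called higher in knockout 5xFAD than in normal microglia, with medians of 2.81 and 1.5. Their part in the result was not tested.

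Knockout against wild-type 5xFAD microglia compares Trem2 genotypes directly. Lgals3bp fell and Gbp3 rose, so that 1 of 46 members was called in each direction, against 2.5% of all genes tested that rose and 2.59% that fell (5.09% in either direction), a share near the background. Lgals3bp had 11621, 9005 and 11483 normalized reads in knockout 5xFAD microglia, against 21421, 20383 and 24476 in wild-type 5xFAD microglia, a fold change of -1.05 (SE 0.16, adjusted p = 0.000374). All 3 knockout libraries, S26 included, lay below every wild-type one and, as given above, above every normal one. Gbp3, a GTPase of the defence against intracellular pathogens, had 483, 309 and 502 in knockout and 255, 258 and 208 in wild-type 5xFAD microglia, with a fold change of 0.81 (SE 0.22, adjusted p = 0.0364). The groups did not overlap in 4 higher and 3 lower members, against 10.9% and 11.3% of all genes. The median of the 46 was 0.22, against -0.0084 over all genes, and uncalled members ran from -0.57 (Stat2) to 1.13 (Samd9l). Lgals3bp was called without any 1 of the 6 libraries (adjusted p 0.00067 to 0.0039) and without S25 and S27 together. The Gbp3 call was lost without S25, S27, S22, S23 or S24 (adjusted p up to 0.188), which left no member called higher. Without S26, 19 members rose and 2 fell, and the median was 0.60, against -0.090 without S25. Over all genes 3673 were called without S26 and 298 without S25, against 615 in the main fit. Neutrophil genes were called higher in 10 of 13 cases and monocyte genes in 12 of 14, with medians of 4.22 and 2.27. Their part in the member values was not tested.

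Wild-type transplants against wild-type 5xFAD microglia set circulation-derived against resident cells where the sorted cells carry Trem2. Among the members 8 rose and 7 fell, against 13.6% and 14.6% of all genes tested (28.2% in either direction), so that the shares were near the background, and the median of -0.033 was close to that of all genes (-0.026). The largest differences were in Bst2 and in Ifi207, a member of the PYHIN family of DNA-binding proteins. Bst2 had 10448, 11260, 13605 and 12835 normalized reads in wild-type transplants, against 2522, 2593 and 2762 in wild-type 5xFAD microglia, a fold change of 2.19 (SE 0.14, adjusted p = 8.96e-10). Ifi207 had 1776, 1402, 1521 and 1521 in wild-type transplants, against 277, 313 and 486 in wild-type 5xFAD microglia, a fold change of 2.15 (SE 0.22, adjusted p = 5.78e-07). Both stood apart from all microglia libraries in the study, normal ones included. Gbp3 had 775, 566, 631 and 542 in wild-type transplants and 255, 258 and 208 in wild-type 5xFAD microglia, with a fold change of 1.38 (SE 0.20, adjusted p = 4.99e-05). Oasl1 had 209, 295, 246 and 276 in wild-type transplants, against 115, 96.4 and 124 in wild-type 5xFAD microglia, with a fold change of 1.19 (SE 0.21, adjusted p = 0.000361). Every wild-type transplant library was above every wild-type 5xFAD microglia library in both. Lgals3bp had 11449, 13288, 13647 and 14139 in wild-type transplants, against 21421, 20383 and 24476 in wild-type 5xFAD microglia, and fell by 0.75 (SE 0.15, adjusted p = 0.000731). Ly6e had 24862, 24950, 26330 and 25569 in wild-type transplants, against 38207, 37752 and 38051 in wild-type 5xFAD microglia, and fell by 0.58 (SE 0.11, adjusted p = 0.000776). Ddx58, the RNA sensor RIG-I, had 592, 628, 522 and 478 in wild-type transplants, against 837, 923 and 863 in wild-type 5xFAD microglia, and fell by 0.66 (SE 0.15, adjusted p = 0.0021). These 3 did not overlap between the groups either. Oas3, another 2-5A synthetase, had 155, 141, 244 and 240 in wild-type transplants, against 71.7, 84.4 and 95.1 in wild-type 5xFAD microglia, and rose by 1.18 (SE 0.30, adjusted p = 0.0059).

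Parp9 and Dtx3l, which form a ubiquitin ligase, and the ADP-ribosyltransferase Parp14 fell in that comparison, by 0.53, 0.38 and 0.45, all 3 members of their role. Trim30a, a feedback inhibitor of Toll-like receptor signalling in mice, fell by 0.82. Samd9l (1.40), Slfn2 (0.53) and Sp100 (0.70) completed the risers. The groups did not overlap in 14 higher and 11 lower members, against 19.9% and 21.2% of all genes. Bst2, Ifi207, Gbp3, Oasl1, Oas3, Lgals3bp, Ly6e and Ddx58 were called without any 1 of the 7 libraries. The Sp100 call was lost whichever of the 7 was left out, and the Slfn2 call without S28, S29, S30, S22 or S23. The fallers numbered 3 without S30, without S22 or without S24 and 4 without S31, and the risers 5 without S22 or S23. Beside these results, neutrophil genes were called higher in 10 of 13 cases and T and NK cell genes in 10 of 13, with neutrophil sums of 23977 to 31738 in wild-type transplants and 15327 to 18073 in wild-type 5xFAD microglia. Bst2 is also a marker of plasmacytoid dendritic cells. The other listed markers of that cell summed to 8723 to 10053 in wild-type transplants and 29706 to 31759 in wild-type 5xFAD microglia, with Klk1 at 0 in all 7 libraries and Ccr9 between 0.65 and 6.57 normalized reads. Siglech is on this list and also on the list of microglia markers, so the sum is not particular to plasmacytoid dendritic cells. The part of plasmacytoid dendritic cells in the Bst2 values was not tested.

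Knockout transplants against knockout 5xFAD microglia set origins side by side without Trem2 in the sorted cells. In it 6 members rose and 5 fell, against 11.7% and 13.7% of all genes tested (25.4% in either direction), with a median of -0.098 against -0.023 over all genes. Bst2 had 8635, 9683, 10535 and 9046 normalized reads in knockout transplants, against 3030, 2006 and 2991 in knockout 5xFAD microglia, a fold change of 1.84 (SE 0.14, adjusted p = 1.09e-08). Ifi207 had 1798, 1972, 2015 and 1515 in knockout transplants, against 492, 244 and 361 in knockout 5xFAD microglia, a fold change of 2.36 (SE 0.22, adjusted p = 2.26e-07). Gbp3 had 742, 785, 1276 and 777 in knockout transplants, against 483, 309 and 502 in knockout 5xFAD microglia, a fold change of 1.05 (SE 0.20, adjusted p = 0.00085). All 3 were higher in every transplant library than in every microglia library, and all 3 were called without any 1 library. Ifi35 had 1386, 1304, 1270 and 1326 in knockout transplants, against 2061, 1502 and 1997 in knockout 5xFAD microglia, and fell by 0.47 (SE 0.12, adjusted p = 0.0053). Ly6e had 25267, 21994, 18709 and 26912 in knockout transplants, against 30473, 31921 and 31053 in knockout 5xFAD microglia, and fell by 0.44 (SE 0.11, adjusted p = 0.0079). Neither overlapped between the groups. Ifi27l2a had 962, 902, 1004 and 788 in knockout transplants, against 3135, 1001 and 3530 in knockout 5xFAD microglia, and fell by 1.29 (SE 0.32, adjusted p = 0.0055). Ifitm3 had 2249, 2056, 2146 and 2341 in knockout transplants, against 4506, 2137 and 5328 in knockout 5xFAD microglia, and fell by 0.76 (SE 0.21, adjusted p = 0.0136). Trim30a had 817, 904, 1232 and 812 in knockout transplants, against 2220, 892 and 2042 in knockout 5xFAD microglia, and fell by 0.78 (SE 0.24, adjusted p = 0.0252). For these last 3 genes, S26 lay within the transplant range and S25 and S27 above it. Ifi204 (1.00), Oasl1 (0.59, adjusted p just under 0.05) and Stat2 (0.51) were the other risers. Groups did not overlap in 4 higher and 2 lower members, against 12.3% and 15.6% of all genes.

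Leaving out S25 and S27 together turned the direction of Ifitm3 (0.039) and Trim30a (0.056) in that comparison, and 17 members then rose and none fell. Without S26 alone 16 fell, without S25 3 and without S27 2, and risers numbered 3 without S33 or S35 and 4 without S32, S25 or S26. Over all genes 4516 were called without S26 and 2264 without S27, against 3062 in the main fit. Neutrophil genes were called lower in knockout transplants in 11 of 13 cases and monocyte genes in 10 of 14, with medians of -2.60 and -1.36, and their part was not tested.

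Wild-type transplants against knockout 5xFAD microglia compare treated with untreated Trem2-knockout hosts. The sorted cells also differ in their own Trem2 genotype, with a Trem2 fold change of 3.10. Genotype, origin, transplantation and PLX5622 cannot be told apart in it. Here 6 members rose and 8 fell, against 17.3% and 17.8% of all genes tested (35.1% in either direction), with a median of -0.12 against -0.011. Bst2 and Ifi207, with the transplant and knockout microglia values given above, again differed most (2.19, SE 0.14, adjusted p = 1.16e-09, and 2.14, SE 0.22, adjusted p = 7.17e-07). Parp14 had 350, 337, 292 and 305 normalized reads in wild-type transplants, against 601, 626 and 474 in knockout 5xFAD microglia, and fell by 0.81 (SE 0.15, adjusted p = 0.000547). Trim30a had 862, 772, 609 and 667 in wild-type transplants, against 2220, 892 and 2042 in knockout 5xFAD microglia, and fell by 1.14 (SE 0.24, adjusted p = 0.0016). Every transplant value was below every microglia value in both, although S26 was near the transplants for Trim30a. Ddx58 had 592, 628, 522 and 478 in wild-type transplants, against 970, 635 and 863 in knockout 5xFAD microglia, and fell by 0.55 (SE 0.15, adjusted p = 0.0073). Eif2ak2, the kinase PKR that halts translation on double-stranded RNA, had 130, 106, 149 and 98.8 in wild-type transplants, against 452, 161 and 250 in knockout 5xFAD microglia, and fell by 1.14 (SE 0.31, adjusted p = 0.0085). Gbp7 had 451, 222, 326 and 293 in wild-type transplants, against 606, 605 and 535 in knockout 5xFAD microglia, and fell by 0.89 (SE 0.25, adjusted p = 0.0117). The 3 genes did not overlap between the groups, with S26 lowest of the microglia for Ddx58 and Eif2ak2 but not for Gbp7. Dhx58, the RIG-I-like protein LGP2, had 1001, 987, 998 and 1027 in wild-type transplants, against 722, 627 and 701 in knockout 5xFAD microglia, and rose by 0.56 (SE 0.16, adjusted p = 0.0126). Herc6, the main Isg15 ligase of mice, fell by 1.10, Ifi27l2a by 0.85 and Parp9 by 0.50, while Oasl1 (0.64), Gbp3 (0.56) and Stat2 (0.54) rose. Levels did not overlap in 5 higher and 6 lower members, against 15.5% and 15.8% of all genes. Without S26 there were 22 fallers and without S25 3. Over all genes 5874 were called without S26 and 2740 without S25, against 4238 in the main fit. Without S25 and S27 together, Ifi27l2a (0.31) and Parp9 (0.014) changed direction. The neutrophil list was called lower in wild-type transplants in 10 of 13 cases, and its part was not tested.

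**Figure D5:**
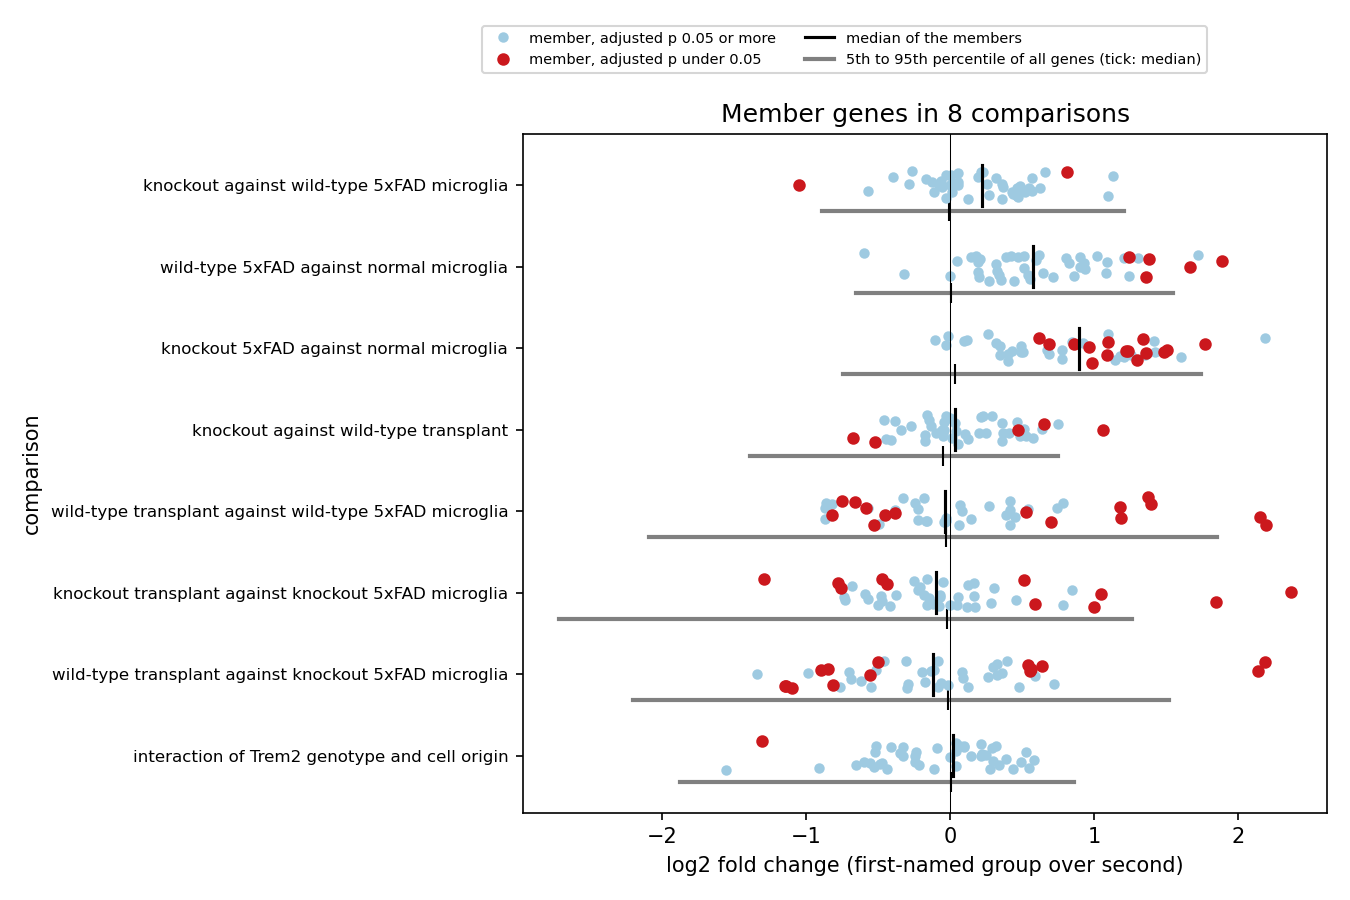
Log2 fold change of each of the 46 members (points) in 8 comparisons, with the members' median (tall bar), and below each row the range from the 5th to the 95th percentile of all 12074 genes tested with its median (tick). Red points are members at an adjusted p under 0.05, and the medians of the members lie furthest from that of all genes for knockout 5xFAD (0.89) and wild-type 5xFAD (0.58) against normal microglia.

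Knockout against wild-type transplants compares donors of either Trem2 genotype in the same kind of host. Parp14, Gbp7 and Ddx58 rose, Lgals3bp and Ifitm3 fell, and the 3 and 2 calls stand against 2.99% and 3.75% of all genes tested (6.74% in either direction). Parp14 had 414, 520, 583 and 510 normalized reads in knockout transplants, against 350, 337, 292 and 305 in wild-type transplants, a fold change of 0.65 (SE 0.14, adjusted p = 0.0176). Gbp7 had 425, 547, 950 and 819 in knockout transplants, against 451, 222, 326 and 293 in wild-type transplants, a fold change of 1.06 (SE 0.24, adjusted p = 0.0193), with S32 and S28 overlapping. Lgals3bp had 10292, 10601, 7054 and 9004 in knockout transplants, against 11449, 13288, 13647 and 14139 in wild-type transplants, and fell by 0.52 (SE 0.14, adjusted p = 0.0322). So Lgals3bp was lower in knockout than in wild-type cells in both origins. Its call in transplants was lost without S34, S35, S29, S30 or S31 (limma adjusted p up to 0.11), while the call in microglia held without any 1 library. Ddx58 had 896, 690, 741 and 755 in knockout transplants, against 592, 628, 522 and 478 in wild-type transplants, and rose by 0.47 (SE 0.14, adjusted p = 0.0446). Ifitm3 had 2249, 2056, 2146 and 2341 in knockout transplants, against 3173, 2921, 3926 and 4164 in wild-type transplants, and fell by 0.68 (SE 0.20, adjusted p = 0.0482). Groups did not overlap in 4 higher and 3 lower members, against 5.96% and 7.74% of all genes, and the median of the 46 was 0.035, against -0.046 over all genes. No call was made in either direction without S30, without S31 or without S34, nor without S30 and S31 together, and without S35 no member fell. Without S32, S33 or S29, 1 member fell. Both counts were 5 and 3 without S28. Over all genes 814 were called in the main fit, 113 without S30 or without S31, 15 without both and 1886 without S28. The pair S30 and S31 also held the highest oligodendrocyte sums, 23985 and 24195, against 4528 to 6234 in knockout transplants and 7062 and 11096 in S28 and S29. In all, 6 of 8 oligodendrocyte genes and 6 of 10 early response genes were called lower in knockout transplants, and their part was not tested.

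The interaction asks whether the knockout effect differs between transplants and microglia. Ifitm3 alone was called, with an interaction of -1.30 (SE 0.30, adjusted p = 0.0249): 1 of 46 was lower and none higher, against 1.95% and 0.87% of all genes tested (2.82% in either direction). Its knockout effect was -0.68 in transplants and 0.63 in 5xFAD microglia, the second not called (adjusted p = 0.128). Knockout microglia S25 and S27 were the 2 highest libraries in the study for Ifitm3, and S26 lay below all 3 wild-type 5xFAD libraries (2404, 2312 and 2513). The call was lost without S33, S30, S31, S25, S27, S22 or S23 (adjusted p up to 0.0791), and without S26 there were 13 members called lower. Over all genes 1666 were called without S26, against 341 in the main fit. Lgals3bp gave an interaction of 0.53 (SE 0.21, adjusted p = 0.176), so that its fall in microglia was not shown to differ from that in transplants.

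Upstream of the members, some receptor chains rose in transplants. In the list of interferon ligands and receptors, 8 of 16 genes were measured and 7 tested. Of these, 4 rose and none fell in wild-type transplants against wild-type 5xFAD microglia, and 4 rose and none fell in knockout transplants against knockout 5xFAD microglia, against 13.6% and 11.7% of all genes tested that rose. Ifnar1 had 6709 to 7563 normalized reads in knockout transplants, 4738 to 7110 in wild-type transplants, 1948 to 2244 in knockout 5xFAD, 2431 to 2695 in wild-type 5xFAD and 2488 to 2809 in normal microglia. Its fold change was 1.17 (SE 0.12, adjusted p = 5.46e-07) for wild-type and 1.79 (SE 0.12, adjusted p = 3.07e-09) for knockout transplants against their microglia. Ifnar2 rose by 0.49 and 0.69 in these comparisons, and Il10rb, a chain shared by interleukin 10 and interferon lambda receptors, by 0.92 and 1.05. The interferon lambda receptor chain Ifnlr1 rose by 4.09 in the wild-type comparison and had 0.17 (adjusted p = 0.891) in the knockout one. In the knockout comparison Ifng, interferon gamma, rose by 3.31 (SE 1.09, adjusted p = 0.032). The SEs of Ifnlr1 and Ifng there, 0.70 and 1.09, were far above the 0.12 of Ifnar1, so the fold changes of these genes are imprecise. Listed T and NK cell markers summed to 2663 to 6534 in knockout transplants and 881 to 2198 in knockout 5xFAD microglia. The part of these cells in the Ifng values was not tested. The interferon gamma receptor chains Ifngr1 and Ifngr2 were not called in either comparison. Ifnb1, the only type I interferon measured, had 0 to 14.1 normalized reads per library and was not tested. Among the signalling and feedback genes, Irf1 rose in both kinds of transplant against their microglia (0.57 and 0.67), and Socs3, an inhibitor of JAK signalling, fell (by 0.89 and 1.52). In knockout against wild-type 5xFAD microglia the members' own transcription factors were not called, with fold changes of -0.57 for Stat2 (adjusted p = 0.0694), 0.053 for Irf9 and 0.058 for Irf7. Among 15 tested genes of nucleic acid sensing, 2 rose and 3 fell in wild-type transplants against wild-type 5xFAD microglia, against 13.6% and 14.6% of all genes tested. In knockout transplants against knockout 5xFAD microglia 2 rose and 1 fell, against 11.7% and 13.7%, so the counts were small beside the background. The endosomal RNA receptor Tlr3 fell in both comparisons, by 1.60 and 1.05. Tlr7, another such receptor, fell by 0.88 in the wild-type comparison and had -0.066 (adjusted p = 0.815) in the knockout one. Unc93b1, which carries these receptors to endosomes, rose in both (0.63 and 0.72), and Trim25, a ubiquitin ligase of RIG-I signalling, rose in the knockout comparison (0.73). In knockout against wild-type transplants 2 of the 15 rose and none fell, against 2.99% and 3.75% of all genes tested. They were Tlr3 (0.74) and Tlr7 (0.79).

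Some members share sequence or position with other genes, and the way reads were assigned is not given in the sources used here. Values of Ifit3 and Ifit3b, Ifi204 and Ifi207, Oas1a, the Slfn, Gbp and Trim30 genes are uncertain where reads fit a near-identical copy. From start to end of the annotated genes, Parp9 and Dtx3l overlap by 682 bases, Rtp4 and Masp1 by 525 and Irf7 and Phrf1 by 45. These lie on opposite strands, while Irf9 and Rnf31 share 123 bases on the same strand. Overlap of exons was not computed.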

How the data were processed

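Per the labels' protocols, CD45+CD11b+ brain cells went from the sorter into TRIzol LS, and a low-input SMART-Seq kit turned their RNA into sequencing libraries. The submitters' processing notes name bcl2fastq, STAR 2.5.2b, HTSeq, RSEM, DESeq2 (given as 3.17) and the build mm10 (GRCm38.p6), with no roles. The authors deposited 1 table of normalized counts, a depth-scaled signal per gene. Values were whole multiples of 1 read, within a tolerance of 0.02, for at least 99.993% of genes in every library. On the reads so recovered edgeR called 402 to 4180 genes per comparison.

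Values were tested as log2(value + 1) with limma 3.58.1 in R 4.3.3, with trend, 2-sided, in 1 fit over 17 libraries. Genes needed a value of at least 10 in at least 3 libraries. The Benjamini-Hochberg threshold was 0.05. The test was run on simulated data first. The members and gene lists were chosen with earlier results of these data known. Full values are given for called members, at most 8 per comparison by adjusted p. Alternatives were other pseudocounts (0.5 and 8), no filter, other scalings, edgeR 4.0.16 and DESeq2 1.42.0 on recovered reads, the compared groups alone, close libraries averaged, and single libraries left out. Depth sets the precision of genes with few reads, and RNA copies without molecular identifiers are not independent molecules. Some results are not reported here.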

Additional observations from a re-analysis of the deposited data

Results flagged for a closer look

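Gbp3 in knockout transplants had 1 library far from the rest: S34 had 1276 normalized reads and the other 3 had 742 to 785, a gap of 0.92 of the range. Ifi204 in wild-type transplants did likewise, with 1278 in S28 and 929 to 966 in the others, a gap of 0.894 of the range. These were 2 of 92 groups of 4 libraries examined, where chance gives about 1 in 20. Ifitm3 was called for a knockout effect that differed between cell origins, with an interaction of -1.302 (SE 0.302, limma adjusted p = 0.0249). That call was lost without S33, S30, S31, S25, S27, S22 or S23, and with close libraries averaged.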

How the results depend on the processing

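Bst2 and Ifi207 in the 3 transplant comparisons, and Lgals3bp in knockout against wild-type 5xFAD, wild-type 5xFAD against normal, and wild-type transplant against wild-type 5xFAD libraries, stayed called under each alternative run. Counts of called members that moved by over 1.5 times are given as higher and lower; the cause was not tested. For knockout against wild-type 5xFAD microglia (1 and 1), higher counts were 2 with a pseudocount of 8 or TMM, 3 with upper-quartile or quantile scaling or edgeR, 5 (and 2 lower) with DESeq2, and 0 with the compared groups alone or close libraries averaged. For wild-type 5xFAD against normal microglia (5 and 0) they were 10 with DESeq2 and 23 (1 lower) with the groups alone. For knockout 5xFAD against normal microglia (15 and 0) they were 32 with DESeq2 and 0 with the groups alone or close libraries averaged. For knockout against wild-type transplants (3 and 2), 1 was lower with no filter, TMM, upper-quartile scaling, edgeR or the groups alone (0 higher), 0 with quantile scaling, and neither direction had any with close libraries averaged. Wild-type transplants against wild-type 5xFAD microglia (8 and 7) gave 14 and 11 with the groups alone and 4 and 3 with close libraries averaged. Knockout transplants against knockout 5xFAD microglia (6 and 5) gave 3 and 1 with the groups alone and 1 lower with averaging. Wild-type transplants against knockout 5xFAD microglia (6 and 8) gave 17 lower with edgeR or DESeq2, 4 lower with the groups alone, and 2 and 1 with averaging. The interaction (0 and 1) gave 2 lower with a pseudocount of 8, quantile scaling or DESeq2 and 0 with averaging. Its 0 higher stands beside 4 at an unadjusted p under 0.05 and 0 by edgeR and DESeq2. Over all genes, knockout against wild-type 5xFAD microglia gave 615 calls, 1001 with DESeq2, 278 with the groups alone and 165 with averaging. Wild-type 5xFAD against normal microglia gave 457, 769 with DESeq2 and 1757 with the groups alone. Knockout 5xFAD against normal microglia gave 472, 1266 with DESeq2, 1 with the groups alone and 22 with averaging. Knockout against wild-type transplants gave 814, 67 with the groups alone and 30 with averaging.

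Leaving out 1 library at a time gave, in the same order of comparisons, 0 to 19 higher and 1 to 2 lower; 3 to 5 and 0 to 0; 0 to 38 and 0 to 0; 0 to 5 and 0 to 3; 5 to 7 and 3 to 8; 3 to 6 and 2 to 16; 4 to 6 and 3 to 22; and 0 to 1 and 0 to 13. Interaction calls numbered 2 lower without S32, S28 or S29 and 13 without S26. Over all genes the same omissions called, in that order of comparisons, 298 to 3673, 270 to 325, 46 to 4601 and 113 to 1886. The remaining ranges over all genes were 2393 to 3736, 2264 to 4516, 2740 to 5874 and, for the interaction, 185 to 1666. Where a group was left with 1 library, its spread was taken from the other groups.

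Added after seeing the data, omission of S25 and S27 gave 0 and 4 for knockout against wild-type 5xFAD microglia, 0 higher against normal microglia, 17 and 0 for knockout transplants and 17 and 1 for wild-type transplants against knockout 5xFAD microglia, and 2 and 0 for the interaction. It reversed Ifitm3 (0.0387) and Trim30a (0.0564) in the first of these transplant comparisons and Parp9 (0.0139) and Ifi27l2a (0.307) in the second. Omission of S30 and S31 gave 0 and 0 for knockout against wild-type transplants, 4 and 3 for wild-type transplants against wild-type 5xFAD microglia, 3 higher against knockout 5xFAD microglia and 0 lower for the interaction. Array weights, in the order of comparisons above, gave 27 and 3, 30 and 1, 40 higher, 7 and 7, 15 and 11, 17 lower, 22 lower, and 4 and 19. Over all 12074 genes tested, array weights called 5856, 2227, 6080, 3447, 6274, 6477, 6996 and 4538 in the same order. No paired analysis was possible because the columns outside the normal group all carry the same replicate number. Depth limits the members with few reads, such as Ifi44.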

Other observations

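Of 20 listed genes induced mainly by interferon gamma, 17 were tested. In knockout against wild-type transplants 5 rose and none fell (limma), against 2.99% and 3.75% of all genes tested; the other 12 were not called, and 5 of them, among them Cd274 (-0.64) and Wars (-0.31), were below 0. Over all genes this comparison is sensitive to single libraries: 814 genes were called, against 113 without S30 or without S31 and 15 without both, and the list was not retested without them. The 5 that rose were Gbp4 (1.68), Gbp5 (1.04), Gbp9 (0.62), Irgm2 (0.54) and Igtp (0.47), GTPases that act on membranes around intracellular pathogens. In knockout 5xFAD against wild-type 5xFAD microglia 2 rose and 1 fell, against 2.5% and 2.59% of all genes tested. Ifi47 rose by 1.41 and Ciita by 1.12, while Cd274, the ligand PD-L1, fell by 1.16. In wild-type 5xFAD against normal microglia Cd274 rose by 1.86 and Ifi47 fell by 0.88. No test of the difference between these comparisons was run for the list.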
